A study of Mus musculus with 10 samples.

Results

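Homeobox and POU transcription factors, the regulators that pattern the embryonic body and nervous system, were followed in sorted microglia and in whole brain tissue of the mouse. The set holds every protein-coding gene of the deposited count table whose symbol belongs to the Hox, Pbx, Meis, Lhx, Dlx, Emx, Otx, Nkx, Irx, Six-family, Pax or Pou series, which gave 114 genes of the 56748 in the table and of its 21970 protein-coding genes. The table's own transcription factor annotation labels 88 of them Homeobox, 15 Pou, 9 PAX and 2 TF_Otx, so all 114 carry a family label that fits their symbol. Members were grouped here into 10 families: 39 Hox, 15 Pou, 14 Nkx, 9 Pax, 8 Lhx, 7 Pbx and Meis, 6 Dlx, 6 Irx, 6 Six-family, and 4 Emx and Otx genes.

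The microglia samples were CD11b-positive cells sorted from brain, at 400000 cells each, and the bulk brain samples were hemi brains left unsorted. There were 5 libraries of each, all from young male C57BL/6 mice with no treatment or engineered allele named. Microglia are the resident macrophages of the brain, and CD11b is also carried by other myeloid cells. Nothing in the labels ties the 5 samples of a group to different animals, and the p-values therefore reflect the scatter among these samples alone, part or all of which may be technical. Bulk brain mixes cell types, and there fewer cells of a type and less RNA per cell cannot be told apart. Libraries held 25087489 to 28514509 counts in microglia and 25845049 to 34709215 in bulk brain. All 14 microglia markers examined were higher in the sorted cells and all 14 neuronal markers were lower, with a summed neuronal level of 0.293% of that in bulk brain.

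A homeodomain is a small helical fold that inserts a recognition helix into the major groove of DNA. Hox genes lie in clusters and are used along the head-to-tail axis. Lower-numbered paralogue groups act from hindbrain levels on, and higher-numbered groups further toward trunk and tail. Pbx and Meis proteins are partners that bind DNA together with Hox proteins, whereas POU proteins join a homeodomain to a second, POU-specific domain and recognise octamer sequences. The Lhx, Dlx, Emx, Otx, Nkx, Irx, Six-type and Pax families each mark regions or lineages of the developing brain, and many stay on in the adult neurons or glia derived from them.

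Few of these genes were measured in microglia, and those that were belong mostly to the partner and octamer-binding groups. Levels are given in CPM, the count of a gene relative to the TMM-scaled total of its library, and differences are log2 values of microglia minus bulk brain from edgeR's quasi-likelihood test with Benjamini-Hochberg adjustment over all genes tested. After the low-count filter, which asks for about 0.356 CPM in 5 libraries, 60 members were tested and 54 were not. Of the 60, 5 were higher in microglia, against 37.2% of all 18969 genes tested. Another 54 were lower, 52 of them by at least 2-fold, against 43.9% and 36.8% of all genes, and 1 (Six5) did not pass the threshold. The median log2 difference of the tested members was -7.26, or -6.23 with members at 0 microglia counts placed at their bound, beside -0.14 over all genes tested.

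The filter shaped those totals. Only 11 of the 60 tested members reached the filter level in all 5 microglia libraries (18.3%, beside 74.1% of all genes tested), and the other 49 passed through bulk brain alone, so that their lower level follows in large part from how they entered the test. Among the 11, 5 were higher in microglia (Pou2f2, Pou2f1, Pbx2, Meis3 and Hoxb4) and 5 were lower (among them Pbx3, Meis1, Pou6f1 and Otx2). The remaining member, Six5, did not pass the threshold. At the other end, 57 of the 114 members had no count in any microglia library, and 15 of these had none in bulk brain either. Of the 54 untested members, 15 had no count in any library, 11 had 1 to 9 counts and 28 had 10 or more.

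**Figure D1:**
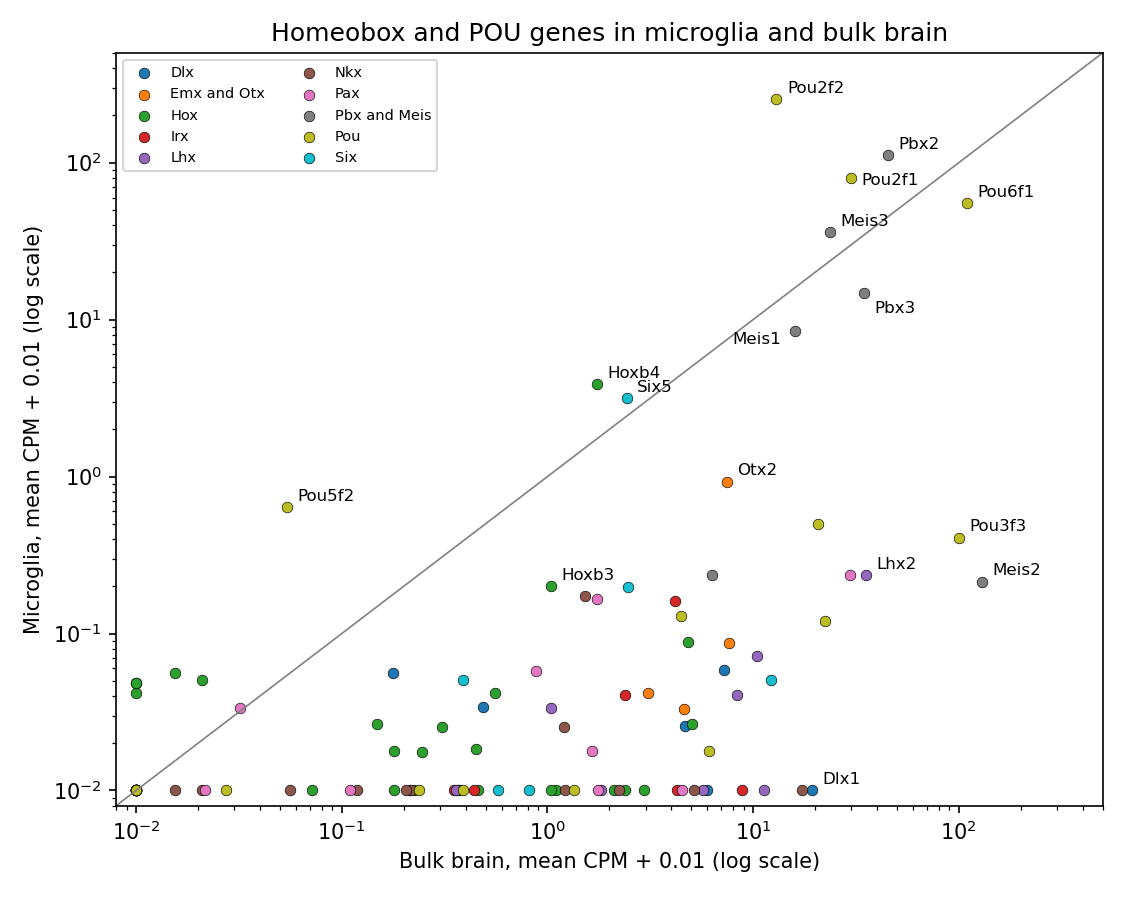
Mean CPM of members in bulk brain (x axis) and microglia (y axis), both on log scales with a small constant added so that zeros can be drawn. Each point is a gene coloured by family and the line marks equal levels; Pou2f2 lies far above the line, while most members form a band near the bottom of the microglia axis.

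Summed over all members, microglia libraries held 594 ± 25.7 CPM and bulk brain libraries 1029 ± 50.5 CPM (SD, n = 5 each). The microglial total was made up of few genes. Pou2f2 alone gave 42.6% of it, Pou2f2, Pbx2 and Pou2f1 together 74.8%, and 8 genes 97.9%. In bulk brain the 8 most abundant members gave 65.8% of the total. By family, the summed microglial level was 125% of the bulk level for the Pou genes, 43.4% for Pbx and Meis, 18.1% for Six-family genes and 17.1% for Hox. It was 4.62% for Emx and Otx, and for Pax, Irx, Nkx, Lhx and Dlx it lay between 0.357% and 1.14%. Single libraries carried 3 of those low sums, so these families are given in no order: Nkx was at 0.611%, or 0.268% without microglia replicate 3, Lhx at 0.461%, or 0.240% without the same replicate, and Pax at 1.14%, or 0.586% without replicate 2. Irx was at 0.888% and Dlx at 0.357%.

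The upstream sequences of the members that carried the microglial total are printed with that of Hoxb4, the 1 Hox gene higher in microglia, and that of Meis2, the member with the smallest adjusted p among those lower, so that a partner gene of each direction can be compared. Each is the 250 bases before the most upstream RefSeq start (build GRCm38.p6), 5′ to 3′ on the strand of the gene, with matches to the motifs searched in capitals.
Pou2f2 (chr7:25132461-25132710, minus strand): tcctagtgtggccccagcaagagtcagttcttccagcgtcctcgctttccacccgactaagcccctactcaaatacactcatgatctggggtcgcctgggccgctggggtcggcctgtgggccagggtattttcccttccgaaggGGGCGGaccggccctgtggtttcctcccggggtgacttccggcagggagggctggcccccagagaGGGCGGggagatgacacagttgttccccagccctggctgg
Pou2f1 (chr1:166002635-166002884, minus strand, 1 of 3 starts in the table): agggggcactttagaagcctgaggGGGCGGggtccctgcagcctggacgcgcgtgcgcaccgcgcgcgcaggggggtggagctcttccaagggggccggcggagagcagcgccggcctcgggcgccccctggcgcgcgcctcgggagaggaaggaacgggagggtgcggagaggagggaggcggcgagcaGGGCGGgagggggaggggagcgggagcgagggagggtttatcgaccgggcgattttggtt
Pbx2 (chr17:34592009-34592258, plus strand): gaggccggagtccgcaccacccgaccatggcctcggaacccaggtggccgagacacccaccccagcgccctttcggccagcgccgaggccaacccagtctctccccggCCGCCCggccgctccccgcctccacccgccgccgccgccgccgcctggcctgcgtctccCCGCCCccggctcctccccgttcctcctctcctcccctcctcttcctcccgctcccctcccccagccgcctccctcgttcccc
Hoxb4 (chr11:96318017-96318266, plus strand): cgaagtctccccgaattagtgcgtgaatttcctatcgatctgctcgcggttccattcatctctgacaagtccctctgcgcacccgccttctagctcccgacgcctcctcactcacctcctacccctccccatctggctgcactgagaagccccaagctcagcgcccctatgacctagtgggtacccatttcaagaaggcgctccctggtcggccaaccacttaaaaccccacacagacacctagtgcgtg
Meis2 (chr2:116064620-116064869, minus strand): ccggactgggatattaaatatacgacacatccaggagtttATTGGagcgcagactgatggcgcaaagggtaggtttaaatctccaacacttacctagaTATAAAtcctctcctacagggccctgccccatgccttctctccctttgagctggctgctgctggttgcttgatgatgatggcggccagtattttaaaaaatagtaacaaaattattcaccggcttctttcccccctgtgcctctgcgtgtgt

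Motifs were searched on both strands as exact letters: the octamer ATGCAAAT bound by POU proteins, a PU.1-type ETS site GAGGAAGT, the GC box GGGCGG, the motif CCAAT and the TATA box TATAAA. Pou2f2, Pou2f1 and Pbx2 each held 2 GC boxes and none of the other motifs. Hoxb4 held no match to any motif, and neither did Meis3, whose window is not printed. Meis2 held 1 CCAAT and 1 TATAAA and no GC box. The windows held 12 CpG in Pou2f2, 29 in Pou2f1, 27 in Pbx2, 14 in Hoxb4 and 7 in Meis2. Of the 114 members, 76 had a promoter in the table. GGGCGG occurred in 43 of these 76 (56.6%) and in 33.0% of all 27025 promoters of the same length. CCAAT occurred in 36 (47.4%) beside 34.5%, TATAAA in 7 (9.21%) beside 12.98%, GAGGAAGT in 1 (1.32%) beside 2.42%, and ATGCAAAT in 0 beside 1.62%. The median CpG number was 13 in the members and 6 over all promoters. These matches describe letters in 1 window per gene and were not related to binding.

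The octamer-binding POU factors Pou2f2 and Pou2f1 were the POU genes higher in microglia. Pou2f2 (Oct-2, known from B lymphocytes, chr7:24786769-24879151 in GRCm39, minus strand) stood at 256, 250.1, 269, 224 and 266 CPM in microglia replicates 1 to 5 and at 11.8, 15.6, 10.8, 12.9 and 13.7 CPM in bulk brain replicates 1 to 5. Every microglia library was far above every bulk library, and the spread within each group was small beside the gap. The mean was 253 ± 17.9 CPM against 12.98 ± 1.85 CPM (SD, n = 5), 19.5-fold higher, with a log2 difference of 4.28 ± 0.13 (SE, adjusted p = 4.9e-11 by edgeR).

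Since Pou2f2 is known from B cells, the B cell markers are given beside it. Of 10 B cell genes, 3 were tested: Cd79b and Cd22 were higher in microglia, at 15.9 and 15.6 CPM, and Ebf1 was lower. The defining markers Ms4a1 and Cd79a stood at 0.0773 and 0.240 CPM in microglia, and the summed list ranged from 29.7 to 35.8 CPM in microglia and from 12.4 to 23.8 CPM in bulk brain. Pou2af1, the B cell coactivator that binds octamer factors on DNA, had 0 counts in microglia, and the 4 other POU cofactors listed were tested. Hmgb2, Hcfc1 and Snapc4 were higher, Hmgb2 at 44.2 ± 4.56 CPM against 4.39 ± 1.14 CPM, and Sox2, a neural progenitor and glial factor, was lower with a log2 difference of -7.84. From 4 cofactors nothing is read against the 37.2% and 43.9% of all genes called in these directions. Markers of neutrophils and monocytes, other CD11b-positive cells, summed to 33.2 to 43.4 CPM in microglia and 0.715 to 1.203 CPM in bulk brain, with 4 of 4 tested genes higher. Markers of border macrophages, the CD11b-positive cells of the meninges and vessels, were higher for 8 of 8 genes and summed to 498 to 646 CPM against 11.1 to 12.9 CPM. Those of T and NK cells summed to 3.02 to 5.09 CPM against 5.19 to 8.30 CPM. The part of those cells in Pou2f2 and in the other members was not tested.

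Pou2f1 (Oct-1, a widely expressed octamer-binding factor, chr1:165692723-165830247, minus strand) stood at 82.1, 72.4, 78.1, 83 and 82.3 CPM in microglia. In bulk brain it stood at 14.1 and 14.6 CPM in replicates 1 and 2 and at 39.2, 40.3 and 42.0 CPM in replicates 3 to 5. The groups did not overlap, but bulk brain split into a low pair and a higher trio. The log2 difference was 1.41 ± 0.31 (SE, adjusted p = 0.0012 by edgeR), and with bulk brain replicates 3 to 5 alone it was 0.82 (adjusted p = 1.5e-07).

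The other POU genes tested were lower in microglia, and all of them but Pou6f1 entered the test through bulk brain alone. Pou6f1 (Brn-5, chr15:100473199-100497865, minus strand), the most abundant POU gene of bulk brain, was still well measured in microglia, at 50.4, 58.2, 52.9, 52.3 and 61.6 CPM against 103, 93.7, 113, 120.4 and 119 CPM. No microglia library reached the lowest bulk library, and the log2 difference was -0.995 ± 0.10 (adjusted p = 2.2e-06 by edgeR). The class III genes, which act in neural progenitors, neurons and Schwann cells, were close to 0: Pou3f3 (Brn-1) stood at 99.8 ± 2.38 CPM in bulk brain and 0.398 ± 0.521 CPM in microglia, or 0.168 CPM without microglia replicate 2. Pou3f2 (Brn-2) stood at 0.110 CPM in microglia, or 0.0692 CPM without that replicate. Its log2 difference was -7.60, and that of Pou3f1 (Oct-6) was -5.40. Pou3f4 (Brn-4, chrX:109857886-109860813, plus strand) had 1 count in all microglia libraries together against 4.35, 4.55, 6.11, 8.48 and 7.06 CPM in bulk brain. Its bulk-to-microglia ratio was 768, with a 95% interval of 138 to 30368 that covers counting error only, and without microglia replicate 4 no count was left (fitted value -10.51 in place of -8.97, no bound). Pou4f1 and Pou4f2, factors of sensory and retinal neurons, were lower as well, with Pou4f2 at 0 microglia counts.

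Of the 5 untested POU genes, Pou5f1, the pluripotency factor Oct-4, had no count in any library, and Pou1f1, Pou2f3 and Pou4f3 had none in microglia. Pou5f2 had 79 microglia counts, between 0.32 and 0.89 CPM a library, and 8 bulk counts. Without the low-count filter its log2 difference was 3.48 (adjusted p = 0.0011 by edgeR), and it was chosen for mention after its values were seen. It lies wholly within Fam172a on the same strand, which stood at 58.0 ± 2.52 CPM in microglia against 41.5 ± 5.44 CPM in bulk brain, and the part of Fam172a reads in its counts was not tested.

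The Pbx and Meis partner genes, named TALE homeobox genes for an inserted loop in their homeodomain, split between the groups. All 7 were tested, 2 were higher and 5 were lower, beside 37.2% higher and 43.9% lower over all genes. Pbx2 (chr17:34810240-34816374, plus strand) stood at 114, 119, 112, 104 and 110.3 CPM in microglia and at 46.0, 54.4, 40.2, 40.1 and 44.99 CPM in bulk brain. Every microglia library was above every bulk library, with a log2 difference of 1.31 ± 0.10 (SE, adjusted p = 2.1e-07 by edgeR). Gpsm3, a regulator of G-protein signalling next to it, shares 489 bases with Pbx2 on the same strand and stood at 40.3 ± 1.23 CPM in microglia against 1.32 ± 0.804 CPM in bulk brain, and its part in the Pbx2 counts was not tested.

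Meis3 (chr7:15909015-15920429, plus strand) differed least among the members higher in microglia. It stood at 33.1, 35.4, 32.0, 35.9 and 44.8 CPM in microglia and at 25.7, 31.0, 21.0, 20.3 and 20.4 CPM in bulk brain. The lowest microglia library lay just above the highest bulk library, and the log2 difference was 0.62 ± 0.15 (adjusted p = 0.0025 by edgeR).

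Meis2, an abundant TALE gene of bulk brain, went the other way. Meis2 (chr2:115693545-115896320, minus strand), known from striatal and olfactory neurons, stood at 118, 119.7, 129, 137 and 144 CPM in bulk brain and at 0.159, 0.310, 0.269, 0.159 and 0.125 CPM in microglia. No microglia library came near a bulk library, and the log2 difference was -9.27 ± 0.20 (SE, adjusted p = 7.3e-12 by edgeR). Meis2 entered the test through bulk brain alone, so its lower level follows in large part from that.

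Pbx3 and Meis1 fell by smaller amounts. Pbx3 stood at 14.9 ± 0.683 CPM in microglia against 34.7 ± 2.09 CPM in bulk brain (log2 difference -1.22), and Meis1, known from blood stem cells, at 8.42 ± 0.621 CPM and 15.9 ± 1.77 CPM (log2 difference -0.92). Pbx4 had 0.228 ± 0.256 CPM in microglia, or 0.118 CPM without replicate 5, against 6.28 ± 2.16 CPM in bulk brain. Like Meis2, Pbx4 entered the test through bulk brain alone. Per kilobase of gene length, the scale on which genes can be compared, Pou2f2 and Pbx2 both reached 30.7 CPM per kb in microglia. Meis3 followed at 11.4, Pou6f1 at 7.93, Pou2f1 at 4.79, Pbx3 at 2.43, Hoxb4 at 1.51, Six5 at 1.05, Meis1 at 0.799 and Otx2 at 0.217 CPM per kb. In bulk brain, high levels were those of Pou6f1 at 15.8, Pou3f3 at 12.9, Pbx2 at 12.4 and Meis2 at 10.8 CPM per kb.

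**Figure D2:**
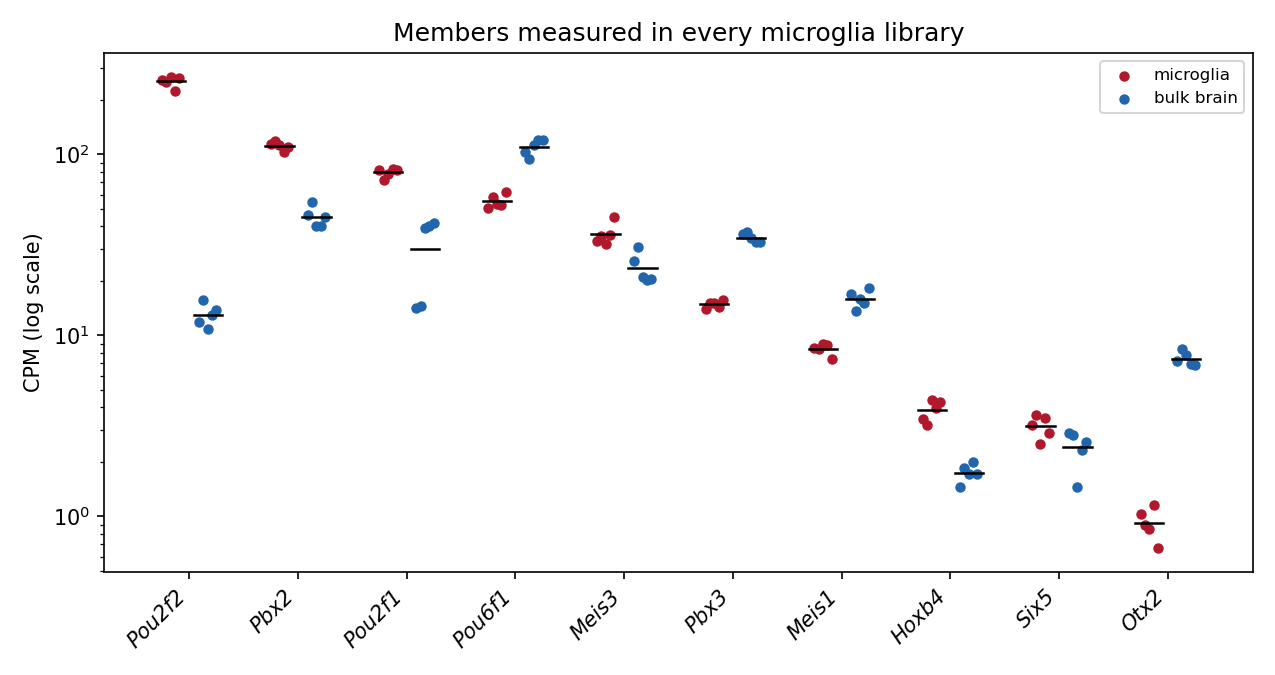
CPM of members that reached the filter level in all 5 microglia libraries, on a log axis, with 1 point per library in microglia and in bulk brain and a line at each mean. Of the genes shown, Pou2f2 has the widest gap upward and Otx2 the widest gap downward, while the Six5 points of the groups mix.

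Transcripts of genes whose proteins work with Pbx, Meis and Hox were measured too, from a list of 7 genes. All 7 were tested, 6 were higher in microglia and 1 was lower, beside 37.2% and 43.9% of all genes. Tgif1, a TALE repressor of TGF-beta and retinoid responses, stood at 189 ± 22.2 CPM in microglia against 1.43 ± 0.155 CPM in bulk brain (log2 difference 7.04). Pknox1, a Meis-related Pbx partner, stood at 113 ± 2.49 CPM against 17.1 ± 1.39 CPM (log2 difference 2.72). Its paralogue Pknox2 was lower, at 0.158 ± 0.107 CPM against 45.7 ± 3.79 CPM (log2 difference -8.13). The list's median log2 difference was 1.94, beside -0.14 over all genes tested.

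Hox genes had few or no counts in microglia, with the exception of Hoxb4. Of 39 Hox genes, 9 were tested, and Hoxb4 was higher and the other 8 lower, beside 37.2% higher and 43.9% lower over all genes. Those 8 entered the test through bulk brain alone. Hoxb4 (chr11:96209093-96212464, plus strand), known from blood stem cells, stood at 3.45, 3.21, 4.39, 3.97 and 4.29 CPM in microglia and at 1.45, 1.84, 1.71, 1.99 and 1.70 CPM in bulk brain. All 5 microglia libraries were above all 5 bulk libraries, at low levels in both, and the log2 difference was 1.15 ± 0.19 (SE, adjusted p = 1.6e-04 by edgeR). Hoxb4 gave 487 of the Hox counts in microglia, 87.1% of them, and the other 38 Hox genes together gave 72. No annotated gene of the table overlapped Hoxb4.

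Its neighbours in the Hox b cluster did not share that order. Hoxb5 (chr11:96194162-96196947, plus strand), close to Hoxa5 in bulk brain (means of 5.03 and 4.84 CPM, or 1.81 and 2.58 CPM per kb), stood there at 5.71, 7.23, 3.63, 4.77 and 3.79 CPM and had 2 counts in microglia, both in replicate 5. The bulk-to-microglia ratio of Hoxb5 was 321, with a 95% counting interval of 88.6 to 2654, and without replicate 5 no count was left (fitted value -10.24 in place of -7.97, no bound). Hoxb3 stood at 0.191 ± 0.114 CPM in microglia against 1.03 ± 0.414 CPM in bulk brain, which fell by 2.41 on the log2 scale. Hoxb6 and Hoxb8 had 0 counts in microglia, as did Hoxa4, Hoxc4 and Hoxc5.

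In bulk brain the Hox counts came almost wholly from the lower-numbered paralogue groups, here 1 to 8. The 23 genes of paralogue groups 1 to 8 had 4381 counts in bulk brain and 544 in microglia. The 16 genes of groups 9 to 13 had 12 counts in bulk brain and 15 in microglia, and 14 of the 16 had no bulk count. None of the 16 was tested. By cluster, bulk brain held 13.02 CPM from Hox b, 7.29 CPM from Hox a, 4.15 CPM from Hox c and 1.39 CPM from Hox d. A few untested Hox genes had more microglia than bulk counts: Hoxa9 with 6 against 1, Hoxb1 with 5 against 2, Hoxc8 and Hoxc9 with 5 against 0, and Hoxc12 with 4 against 0. At these counts no difference was detectable, with the adjusted p from 0.11 to 0.41 by edgeR without the filter.

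**Figure D3:**
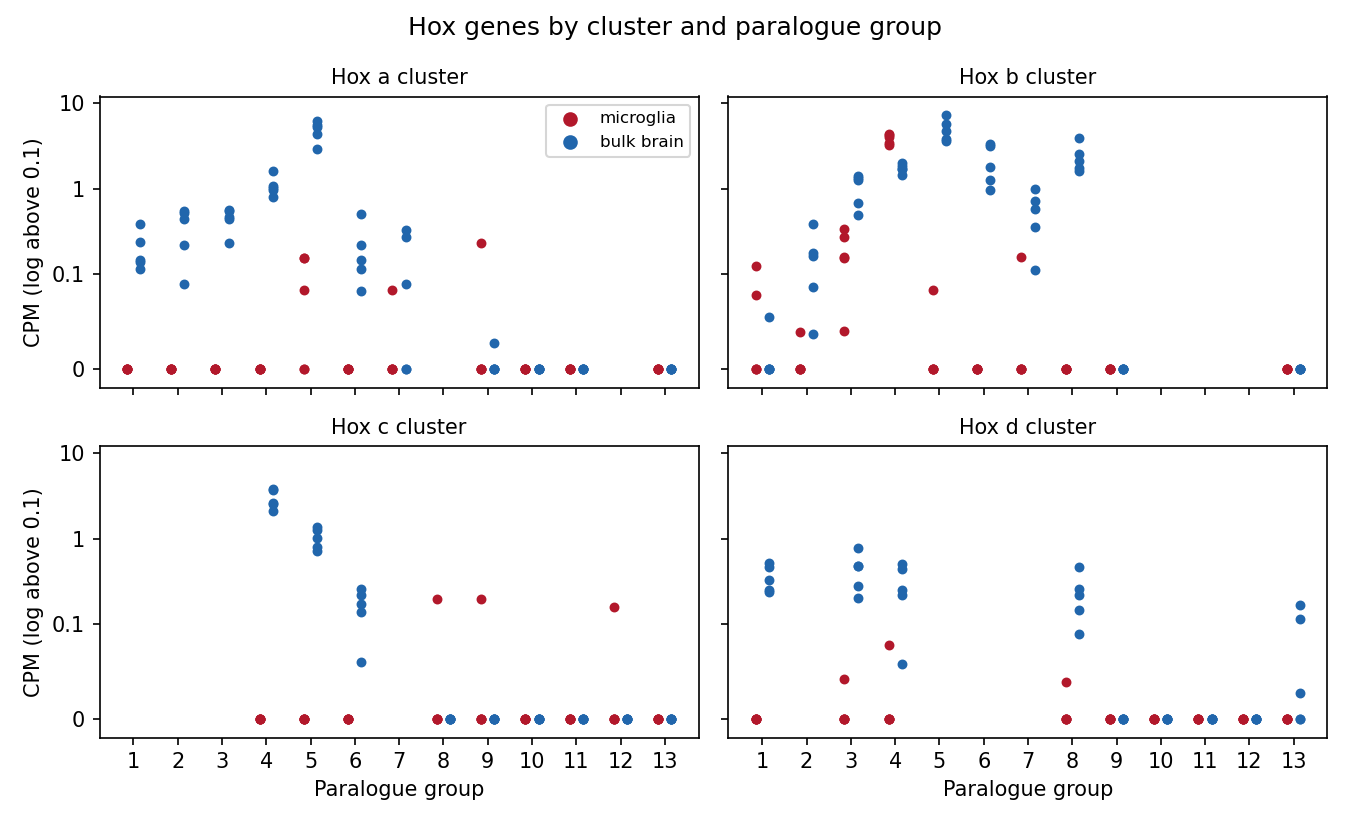
CPM of the 39 Hox genes by paralogue group (x axis) in the a, b, c and d clusters, with 1 point per library in microglia and in bulk brain, on an axis that is linear near 0 and logarithmic above. Most bulk brain points above 0 lie in paralogue groups 1 to 8, and Hoxb4 is the 1 gene whose microglia points lie above its bulk points by a called difference.

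The LIM-homeobox and Dlx genes, which specify neuron classes, stood at or near 0 in microglia. All 7 tested Lhx genes and all 4 tested Dlx genes were lower, beside 43.9% of all genes tested. None of them reached the filter level in all microglia libraries, so their lower level follows in large part from how they entered the test. Lhx2 (chr2:38229293-38259745, plus strand), a factor of cortical progenitors and some glia, stood at 35.7, 48.0, 30.8, 30.9 and 32.1 CPM in bulk brain and at 0.0794, 0.116, 0.616, 0.238 and 0.0832 CPM in microglia. The groups were far apart, and the log2 difference was -7.25 ± 0.42 (SE, adjusted p = 1.4e-08 by edgeR), or -8.04 without microglia replicate 3. Lhx1 (chr11:84409110-84416361, minus strand), known from Purkinje cells, stood at 10.7, 6.77, 12.2, 14.4 and 12.2 CPM in bulk brain and had 0 counts in microglia. Against a floor of 3 counts over the microglia group (0.0238 CPM), Lhx1 was at least 473-fold lower. Lhx5 and Lhx8 also had 0 microglia counts, and Lhx6, a factor of cortical interneurons, had 8 against a bulk level of 10.5 ± 1.11 CPM.

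Dlx1 (chr2:71358457-71364325, plus strand), a factor of inhibitory forebrain neurons, stood at 18.4, 24.2, 16.03, 20.02 and 17.6 CPM in bulk brain and had 0 counts in microglia, at least 809-fold lower. Its neighbour Dlx2 had 0 counts as well, at least 252-fold lower. Dlx5 and Dlx6 had 2 and 6 microglia counts in all, and no Dlx gene reached the filter level in microglia.

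LIM cofactors went both ways. Of the 10 listed, 3 were higher (Ldb1, Lmo2 and Rlim), 6 were lower and 1 (Ssbp4) did not pass the threshold, beside 37.2% higher and 43.9% lower over all genes. Ldb1, the adaptor that joins LIM proteins into complexes, stood at 320 ± 20.6 CPM against 89.95 ± 18.2 CPM, and Lmo2, a LIM-only protein of blood cells, at 240.3 ± 15.5 CPM against 16.9 ± 3.37 CPM. Ldb2, the neuronal paralogue of Ldb1, had 0 microglia counts against 29.5 ± 1.37 CPM in bulk brain. The list's median log2 difference was -1.34.

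The Emx, Otx, Nkx and Irx genes, which mark brain regions, were all lower where tested. These were 4 of 4 Emx and Otx, 6 of 6 Nkx and 4 of 4 Irx, beside 43.9% lower over all genes tested. Of these members, all but Otx2 entered the test through bulk brain alone, so their lower level follows in large part from that. Otx2 (chr14:48895134-48911276, minus strand), a factor of fore- and midbrain development that stays on in choroid plexus, was the only 1 of these 14 that reached the filter level in all microglia libraries. It stood at 1.03, 0.891, 0.847, 1.15 and 0.666 CPM in microglia and at 7.25, 8.45, 7.74, 6.97 and 6.84 CPM in bulk brain. The groups did not overlap, and the log2 difference was -3.01 ± 0.20 (SE, adjusted p = 5.1e-08 by edgeR). Of the choroid plexus and ependymal markers, 9 of 9 were lower, with a median level of 12.7% of bulk beside 12.3% for Otx2, and sums of 54.9 to 157.6 CPM against 582 to 1328 CPM. Ttr, the chief choroid plexus transcript, stood at 97.4 ± 38.3 CPM in microglia against 752 ± 329 CPM in bulk brain. The part of choroid plexus RNA in the Otx2 level was not tested.

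Emx1 (chr6:85164420-85181444, plus strand), a factor of cortical excitatory neurons, stood at 8.28, 11.3, 5.85, 5.78 and 6.76 CPM in bulk brain and was measured in microglia replicate 2 alone, at 0.387 CPM. Its log2 difference was -6.52 ± 0.78 (adjusted p = 9.4e-06 by edgeR), and it rests on that library, without which Emx1 had no microglia count and a fitted value of -10.83 that is no bound. Nkx6-2 (chr7:139159292-139162713, minus strand), a factor of myelinating oligodendrocytes, stood at 20.7, 27.7, 13.2, 12.8 and 12.1 CPM in bulk brain and had 0 counts in microglia, at least 727-fold lower. Irx2 (chr13:72776939-72782317, plus strand) stood at 11.5, 8.82, 8.61, 8.30 and 6.84 CPM in bulk brain and also had 0 microglia counts, at least 371-fold lower. Among the Nkx genes, Nkx2-1, Nkx2-2 and Nkx2-9 had 0 microglia counts too, and Nkx6-1 stood at 10.8% of its low bulk level, or 5.17% without microglia replicate 3.

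The Six-family and Pax genes, regulators of sense organs, eye and neural tube, held 1 tested member that was not called in either direction. Six5 (chr7:18828519-18832474, plus strand) stood at 3.21, 3.64, 2.50, 3.50 and 2.87 CPM in microglia and at 2.90, 2.82, 1.45, 2.31 and 2.58 CPM in bulk brain. The libraries of the groups overlapped, and the log2 difference of 0.38 ± 0.23 did not pass the threshold (adjusted p = 0.16 by edgeR). Six3 (chr17:85921036-85936730, plus strand), a forebrain and eye factor, stood at 11.3, 14.96, 12.8, 11.7 and 10.4 CPM in bulk brain and 0.0408 ± 0.0582 CPM in microglia, with a log2 difference of -8.12 ± 0.50 (adjusted p = 2.2e-08 by edgeR), or -8.998 without microglia replicate 5. Six4 and Six2 were lower as well, and like Six3 they entered the test through bulk brain alone.

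All 5 tested Pax genes were lower, beside 43.9% of all genes tested. All 5 entered the test through bulk brain alone, so their lower level follows in large part from that. Pax6 (chr2:105499245-105527709, plus strand), known from eye, cortical progenitors and cerebellar granule cells, stood at 31.8, 24.5, 30.7, 30.4 and 30.9 CPM in bulk brain. In microglia it was at 1.05 CPM in replicate 2, at 0.0770 CPM in replicate 3 and at 0 in the other libraries. The log2 difference was -6.995 ± 0.76 (adjusted p = 4.1e-06 by edgeR), or -10.26 without microglia replicate 2. Pax5, the B cell commitment factor, was not tested. It had 20 microglia counts, against 289 bulk counts that ranged from 0.317 to 3.19 CPM a library. Of 13 Six-family and Pax cofactors, 5 were higher in microglia, 7 were lower and Paxip1 did not pass the threshold, beside 37.2% higher and 43.9% lower over all genes. Eya4, a phosphatase coactivator of Six-family proteins, stood at 69.4 ± 11.04 CPM against 4.13 ± 1.05 CPM, and the co-repressor Tle3 at 238 ± 8.48 CPM against 50.1 ± 2.47 CPM. Eya1 and Eya2 were lower, with log2 differences of -7.84 and -6.88.

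**Figure D4:**
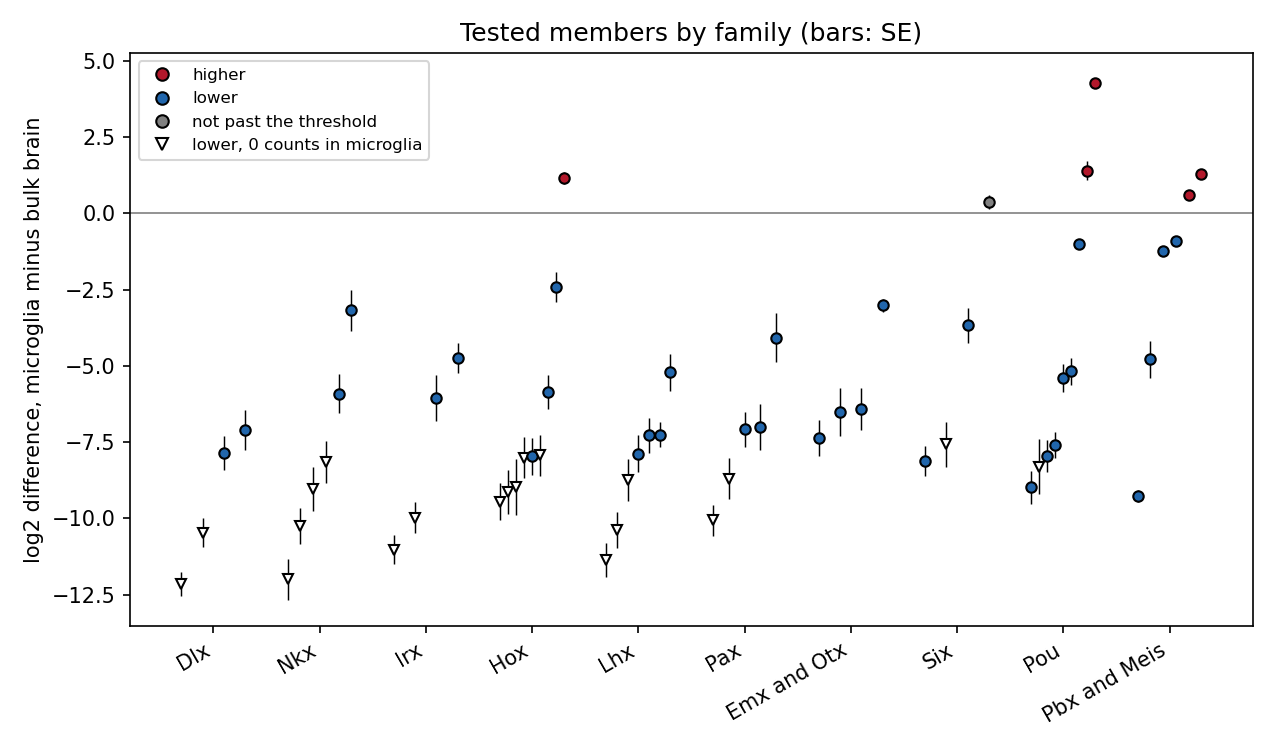
Log2 difference, microglia minus bulk brain, of tested members by family, 1 point per gene with its SE as a bar; downward triangles mark genes with 0 microglia counts, whose fitted value is no bound. Points above 0 occur in the Pou, Pbx and Meis, Hox and Six-type families, and the last of these is Six5, which did not pass the threshold.

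The members below the filter level in microglia left small residues. Of those 49, 20 had 0 counts, 14 stood at under 1% of the bulk level, 9 at 1 to 3% and 6 above. These 6 were Irx3 and Pbx4 at 3.62% each, Pax8 at 5.47%, Six4 at 7.67%, Nkx6-1 at 10.8% and Hoxb3 at 18.5%. Single libraries carried 3 of them: Pbx4 was at 1.88% without microglia replicate 5, and without replicate 3 Pax8 was at 2.40% and Nkx6-1 at 5.17%. In all, leaving out 1 microglia library moved the microglia mean by over 1.5 times for 22 of the 40 tested members with any microglia count. The median over the 49 was 0.342%. Marker medians were 0.134% for neurons, with a range of 0.0394% to 11.03%, 0.575% for astrocytes and 0.664% for oligodendrocytes and their precursors. They were 12.7% for choroid plexus and ependyma and 16.02% for endothelial and mural cells. The 29 of these genes with any microglia count held 52, 149, 94, 47 and 81 counts in replicates 1 to 5, so replicate 2 held the most. The part of neuronal or glial RNA in these counts was not tested.

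Homeobox genes outside the set also held a few that were high in microglia. Of 73 listed, 72 were in the table and 51 were tested, of which 7 were higher, 42 were lower and 2 (Zeb1 and Prox1) did not pass the threshold, beside 37.2% higher and 43.9% lower over all genes. Hhex, known from blood and endothelial progenitors, stood at 114 ± 9.93 CPM in microglia against 1.30 ± 0.402 CPM in bulk brain, with a log2 difference of 6.44. Hlx, known from blood cells, stood at 24.6 ± 2.26 CPM against 0.737 ± 0.278 CPM (5.05 on the log2 scale). The zinc-finger homeobox genes Zfhx3 and Zeb2 stood at 358 ± 10.9 and 503 ± 39.5 CPM in microglia against 22.1 ± 6.79 and 117.5 ± 45 CPM. The list's median log2 difference was -5.20. Of the 72 genes, 28 had 0 microglia counts. Some of these, such as Barhl2, Uncx and Otp, were tested, having passed the filter through bulk brain alone. The lower level of such genes follows in large part from how they entered the test. Their fitted values are no bound and are part of that median.

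Bulk brain replicates 1 and 2 stood apart from replicates 3 to 5 for many members, as a description with no test. Of the 60 tested members, 23 were above the range of the other 3 libraries in both, 10 were below it and 27 overlapped. The ratio of the means exceeded 1.5-fold upward for 12 members and downward for 4. These counts were not made over all genes, so they are not read as particular to the members. Over the whole table, chi-square per degree of freedom was 105.6 to 278.1 for pairs across that split. It was 46.6 between replicates 1 and 2 and 5.45 to 7.76 among replicates 3 to 5. Hoxb6 was 2.44-fold, Nkx6-2 1.91-fold, Dlx6 1.86-fold and Irx5 1.81-fold higher in replicates 1 and 2. Pou2f1 was 2.82-fold, Hoxb3 2.26-fold and Pou3f4 1.62-fold lower there. Several region and cell type marker lists moved with the same libraries. Hypothalamic markers summed to 212 and 356 CPM in replicates 1 and 2 and to 113 to 114 CPM in the others, choroid plexus markers to 1047 and 1328 CPM against 582 to 645 CPM, and oligodendrocyte markers to 7551 and 8080 CPM against 6048 to 6134 CPM. Cortical and hippocampal markers went the other way, at 1380 and 1357 CPM against 1572 to 1760 CPM. Neuronal markers were lower there too, at 7304 and 7248 CPM against 7877 to 8212 CPM. So were astrocyte markers, at 4025 and 3874 CPM against 4708 to 4773 CPM. Hindbrain and cerebellar markers were higher in replicates 1 and 2, at 1045 and 1036 CPM against 929 to 998 CPM. Striatal markers were higher there as well, at 781 and 973 CPM against 712 to 768 CPM. Thalamic and midbrain markers overlapped, at 608 and 663 CPM against 589 to 634 CPM. Endothelial and mural markers overlapped too, at 392 and 450 CPM against 426 to 445 CPM. The part of region and cell type in the member values was not tested.

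**Figure D5:**
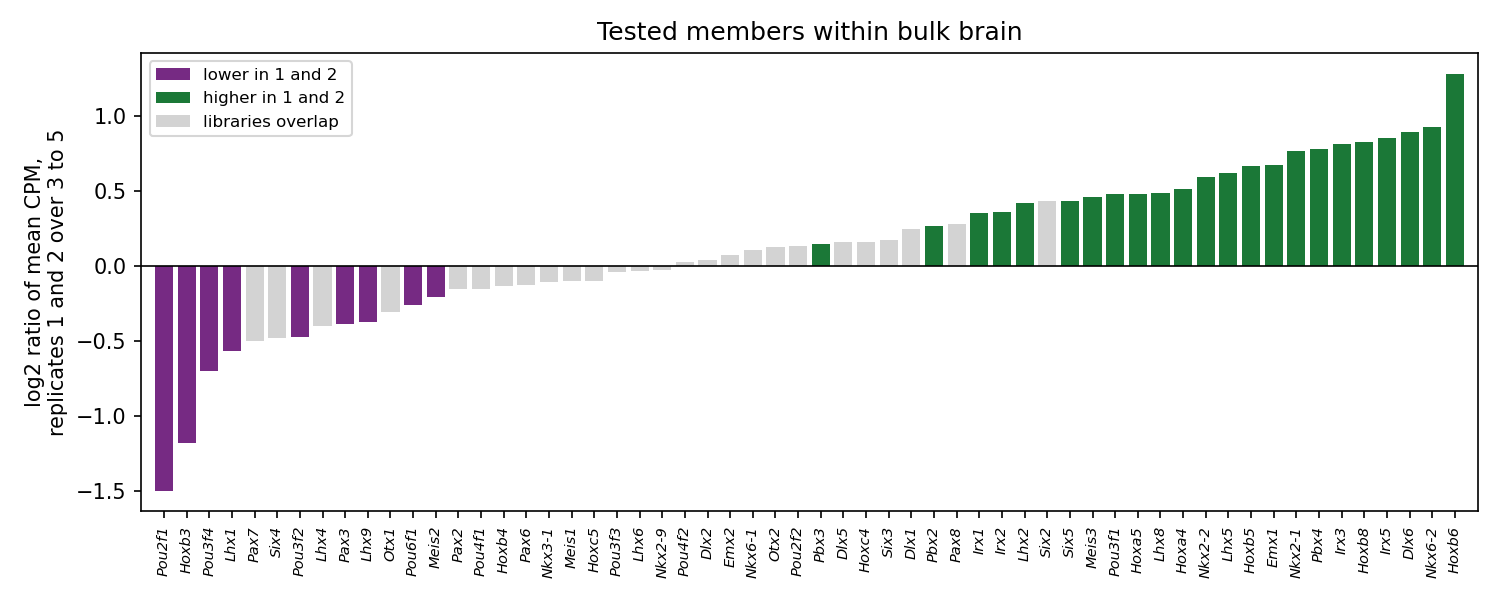
Log2 ratio of mean CPM in bulk brain replicates 1 and 2 over replicates 3 to 5 for tested members, 1 bar per gene, coloured by whether both libraries lie above, below or within the range of the others. Pou2f1 has the lowest bar and Hoxb6 the highest.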

How the data were processed

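Poly-A RNA libraries of 5 microglia and 5 bulk brain samples were counted. The authors deposited raw counts per gene with no normalization; per the submitters' processing notes CASAVA, HISAT2 2.2.1, featureCounts 2.0 and the build GRCm39 (mm39) were used. Not given in the sources used here were the strandedness of counting, the handling of multi-mapping reads and the annotation version. Reads could therefore be shared between genes that overlap: 61 members overlap an annotated gene, 49 of them on the opposite strand. All value columns were mapped to samples (0 were not). Symbols, coordinates, lengths and family labels come from the same deposited table.

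Genes were filtered with filterByExpr, scaled by TMM and tested with edgeR 4.0.16 (R 4.3.3, limma 3.58.1) with group as the only term, adjusted by Benjamini-Hochberg over 18969 genes at 0.05, and the test was tested on simulated data. The SE is the log2 difference divided by the square root of F. Where a group had 0 counts, its fold was bounded by 3 counts summed over that group; 3 counts in 1 library are 0.0820 to 0.125 CPM. Floors and Poisson intervals cover counting error only.

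The members and gene lists were chosen with earlier results of these data known. Genes were named by rule: members higher with at least 1 CPM, the member of each family with the highest mean CPM in each group (at least 1 CPM in bulk brain, 0.5 in microglia), the member of each family with the lowest log2 difference at 5 CPM or more in bulk brain, and tested members past no threshold; other genes were chosen after their values were seen. Alternatives were limma-voom, DESeq2 1.42.0, other scalings and filters, testing against 2-fold, coding genes only, a replicate block, bulk brain replicates 3 to 5 alone, and leaving out each library. Leaving out each microglia library for levels as percent of bulk brain was added after seeing the data. Levels and plots were made with Python 3.11.15 (matplotlib 3.10.9, pandas 2.3.3, numpy 2.4.6, SciPy 1.17.1). Promoters came from RefSeq tables of GRCm38.p6, a build other than that of the counts, and no coordinates were converted. Results of 2 members and of 1 marker gene are not reported here individually, and those members are not plotted; counts and sums over the set include them.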

Additional observations from a re-analysis of the deposited data

Results flagged for a closer look

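In groups of 5 libraries, the gap between the highest or lowest library and its nearest neighbour was compared with Dixon's 95% critical value of 0.71. Of 36 groups examined over the named members, 6 passed. In microglia, Pax6 stood at 1.05 CPM in replicate 2, with the next library at 0.0770 CPM. For 3 members a single microglia library held every count, so that the gap equals the whole range by construction and passing shows nothing more: Emx1 at 0.387 CPM in replicate 2 (10 counts), Hoxb5 at 0.0832 CPM in replicate 5 (2 counts) and Pou3f4 at 0.0397 CPM in replicate 4 (1 count). The rate of about 1 group in 20 passing by chance does not apply to groups made up mostly of zeros, and it is not set against the count of 6. In bulk brain, replicate 2 had the highest Lhx2 level, 48.0 CPM against 35.7 CPM in the next library. The same replicate had the lowest Pax6 level, 24.5 CPM against 30.4 CPM in the next.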

How the results depend on the processing

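Across 21 alternatives, 482 log2 values of 23 members were computed, and none changed direction. Of these, 477 stayed on their side of the threshold and 5 lost the call, all under the test against a 2-fold change: Pou2f1 (1.41, adjusted p = 0.058), Hoxb4 (1.15, 0.14), Meis3 (0.62, 1), Pou6f1 (-0.995, 0.40) and Meis1 (-0.92, 0.66). Under that test 2 members in place of 5 were higher, Pou2f2 and Pbx2, beside 4450 of all 18969 genes. In the other alternatives 5 or 6 members were higher, with Pou5f2 the sixth, and leaving out 1 library at a time gave 5 to 6 higher and 54 to 59 lower. Over all genes, leaving out 1 library gave 6677 to 7127 higher and 8575 to 9033 lower, of 19376 to 19674 tested. Lower members numbered 45 with at least 1 CPM in 5 libraries, 78 of 99 tested without a filter and 57 of 64 with bulk brain replicates 3 to 5 alone. Over all genes, 7278 of 16365, 12197 of 36812 and 9534 of 20098 were lower in these settings. Log2 differences ranged from 0.82 to 1.59 for Pou2f1, 0.94 to 1.27 for Hoxb4, 1.12 to 1.43 for Pbx2 and 4.10 to 4.40 for Pou2f2. The median of all genes was -0.31 with median-of-ratios scaling and -0.33 with library size alone, against -0.14, and no member's direction flipped. Same-numbered samples did not deviate together (correlations of -0.021 to 0.010, and no sample correlated best with its own number). The check sets sorted cells against whole tissue and cannot show whether same-numbered samples came from the same animal. With a replicate block 5 members were higher and 54 lower, beside 6858 and 8037 of 18969 genes, and Pou2f1 was 1.56. Members below about 0.1 CPM cannot be ranked at this depth.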

Other observations

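Dlx1as, a long noncoding RNA gene opposite Dlx1 (chr2:71346798-71368252 in GRCm39, minus strand), spans all 5869 bases of Dlx1 and was higher in microglia, at 16.4 ± 2.58 CPM against 6.48 ± 1.39 CPM, with a log2 difference of 1.34 ± 0.18 (adjusted p = 3.0e-05 by edgeR), although Dlx1 and Dlx2 had 0 microglia counts. Its 5 microglia libraries, at 18.4, 16.8, 11.97, 17.01 and 18 CPM, were all above the 5 bulk libraries, at 5.36, 4.93, 7.09, 6.61 and 8.41 CPM. Metap1d, a mitochondrial methionine aminopeptidase gene on the other strand, shares 8741 bases with Dlx1as and stood at 70.6 ± 1.84 CPM in microglia against 20.6 ± 1.47 CPM in bulk brain (log2 difference 1.77). The part of Metap1d reads in the Dlx1as counts was not tested. The locus was chosen after its values were seen.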
